A study of Mnemiopsis leidyi with 50 samples.

Results

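The transcripts described here are 150 abundant protein models of the ctenophore (comb jelly) Mnemiopsis leidyi whose share of the counted reads changed least over development, from 1 to 20 h post fertilization (hpf). They were chosen from 16548 models, of which 15152 had a count in any embryo. Counts were divided by the total of the embryo and given per 1000000 counts (CPM). The CPM was averaged over the embryos of 8 windows of development, and a model was retained if it reached 100 CPM in every window. That left 664 models, and the 150 with the lowest coefficient of variation (CV, the SD of the 8 window means divided by their mean) are the members. The other 514 are used as the comparison. The window means of the members are therefore given as a description, without a test.

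Single whole embryos were sequenced with CEL-Seq, in which the RNA of each embryo receives its own barcode and is read near the 3′ end, so a count needs no correction for transcript length. The labels name 50 embryos at 26 time points from 0 to 20 hpf, all untreated as far as they say, and give no strain or parents. Embryos with numbers from 41 to 60 hold 1 embryo at each time from 0 to 12 hpf plus 1 at 13 hpf and 1 at 20 hpf. Embryos numbered from 61 to 90 cover 13 to 20 hpf. The labels do not say which embryos came from 1 spawning, so p-values measure the spread between these embryos only.

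After the embryos under 200000 counts were set aside (0 hpf, 5.5 hpf, 1 of 15 hpf and 1 of 19 hpf), 46 embryos remained, with 278730 to 2079694 counts and a median of 868383. The 18 used embryos of the first number range had 3.21 to 4.54% of reads in the ambiguous class, and the 28 of the second had 0.740 to 2.04%. Reads that were not aligned made up 45.6 to 50.7% in the first range and 55.4 to 78.4% in the second. The windows were 1–3, 4–6, 6.5–8, 8.5–10, 11–12, 13–14, 15–17 and 18–20 hpf, with 3, 4, 4, 3, 2, 8, 11 and 11 embryos. The first 5 windows held first-range embryos alone. Of the 30 embryos in the last 3 windows, 28 were of the second range, so a step between 12 and 13 hpf and a difference between the ranges cannot be told apart in the windows.

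In animal embryos the egg starts with RNA stored by the mother, which is degraded while the embryo begins to transcribe its own genes. A transcript that keeps a constant share through this period may be stored and stable, or replaced as fast as it is lost. CPM does not separate these, and it measures a share of the counted reads and not an amount per embryo. In whole embryos, fewer cells that carry a transcript and less of it per cell cannot be told apart. Most cell types of the embryo form in these hours, among them the tentacle tissue that the study followed, which thickens, invaginates and grows out in the second part of the course. The members are named by their ML2.2 identifiers, since the reference gene table used here matched 0 of them. The count table pairs them with no gene names, so no function is assigned to any member.

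Levels differed widely between members. Their mean over the windows ran from 122 to 9953 CPM, with a median of 349 CPM, and 37 members were over 1000 CPM. The most abundant of the other 514 models had a mean of 34050.2 CPM. When the 664 models were divided by level into 4 groups of 166, the members held 40, 36, 28 and 46 places from the lowest group to the highest. The CV of the window means ran from 7.79 to 20.8%, with a median of 16.8%, beside a median of 33.7% in the other 514 models. The highest window was 1.23 to 2.1 times the lowest, and 116 of the 150 members exceeded 1.5 times. Constant thus means a change of up to about this size, not a flat line.

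Counting error alone would have given a CV with a median of 3.11% over the members. The spread between embryos within the windows gave an expected CV, from the standard errors of the window means, with a median of 10.1%.

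The member with the lowest CV (7.79%) was ML353015a, with a mean of 306.9 CPM. Its window means were 323, 338, 330, 282, 321, 276, 293 and 292 CPM in order of time. Single embryos ran from 179 CPM in 1 embryo of 13 hpf to 420 CPM at 4.5 hpf, and all 46 were within 2-fold of their median of 293 CPM. Its embryos at 18 hpf had 285, 305, 273 and 295 CPM, which overlapped the 293, 274 and 403 CPM of the embryos at 1, 2 and 3 hpf.

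ML223521a was next (CV 8.09%, mean 365 CPM), but its embryos differed more among themselves. Its window means stayed between 319 and 400 CPM while single embryos ran from 185 to 762 CPM. The 4 second-range embryos of 14 hpf had 270, 233, 535 and 236 CPM. A steady window mean thus did not require that embryos of 1 hour were alike.

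ML07001a (CV 9.92%) was the only one of the 5 members with the lowest CV over 1000 CPM, with a mean of 1674 CPM. It had 1448, 1681 and 1499 CPM at 1, 2 and 3 hpf, and its embryos at 17 hpf had 2087, 2129, 1928 and 2181 CPM, above all 4 embryos of 18 hpf, with 1213, 1338, 1476 and 1600 CPM. The remaining 2 of these 5 were ML104332a (CV 10.4%, mean 219 CPM, 140 to 309 CPM in single embryos) and ML04055a (CV 10.5%, mean 286 CPM, 147 to 433 CPM).

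At the other end of the choice, the limit fell in a dense part of the ranking. The last members were ML096811a (20.69%), ML04796a (20.76%) and ML40949a (20.83%), and the first models left out were ML02234a (20.84%), ML267922a (20.84%) and ML033619a (20.86%). The last members and the first models outside are not separated by any gap in the CV.

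**Figure D1:**
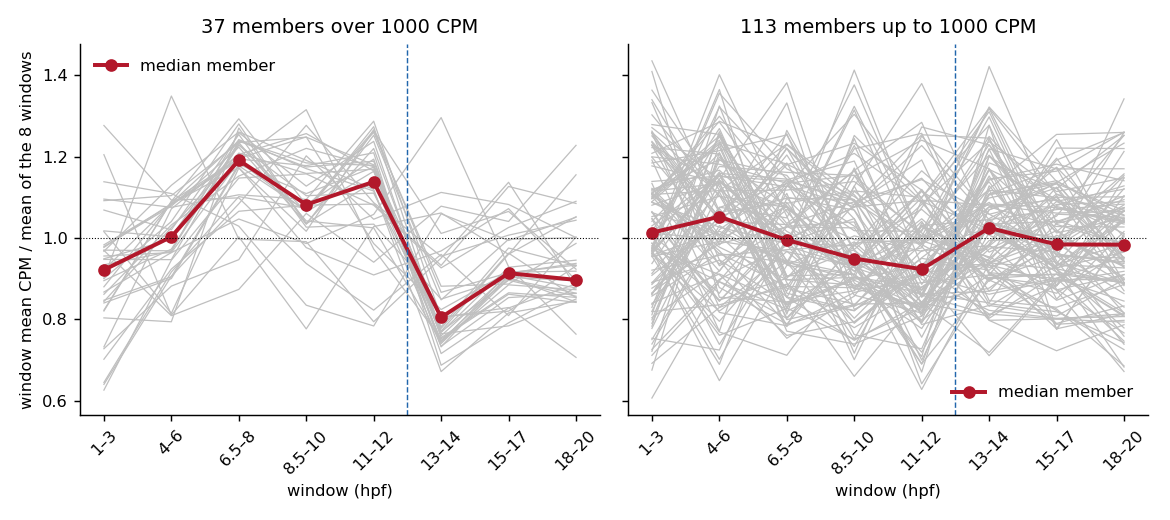
Mean CPM of each member in the 8 windows, divided by the member's own mean over the windows (y axis), for the 37 members over 1000 CPM (left) and the 113 up to 1000 CPM (right). Each grey line is 1 member, the red line is the median member, the dotted line is a ratio of 1 and the dashed line marks where the embryos of the second number range begin. The median abundant member stood at 1.19 in the 6.5–8 hpf window and at 0.81 in the 13–14 hpf window, and the median of the less abundant members stayed between 0.92 and 1.05.

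The abundant members shared a shape that the less abundant ones did not show. Among the 37 members over 1000 CPM, the median ratio to the own mean was 0.92, 1.00, 1.19, 1.08, 1.14, 0.81, 0.91 and 0.90 over the 8 windows. In the 6.5–8 hpf window 34 of the 37 were above their own mean, and in the 13–14 hpf window 6 were. Among the 113 others the ratio was 1.01, 1.05, 1.00, 0.95, 0.92, 1.02, 0.98 and 0.98. These values describe the windows that chose the members, so the difference in shape was not tested. The shape over the windows is not given here for the other models over 1000 CPM.

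The mean of the last 3 windows divided by that of the first 5 had a median of 0.97 over the 150 members, and 84 members were below 1. Among the members over 1000 CPM the median was 0.82 and 30 of 37 were below 1. The other 514 models had a median of 0.70, with 395 below 1. The 89 of them over 1000 CPM had a median of 0.63, with 73 below 1. A lower share in the late windows was thus not particular to the abundant members. The size for the whole set depended on the scaling. With TMM factors (trimmed mean of M values, which scale libraries by a central set of models) the median of the members was 0.85 and 126 were below 1, and with RLE factors (relative log expression, the median ratio to a reference library) it was 1.00 and 76 were below 1. For the abundant members, 36 of 37 were below 1 under TMM and 27 under RLE.

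The embryos of the first range at 13 and 20 hpf offer the same step within 1 number range. The 13 hpf embryo had a median ratio of 0.97 over the members to their mean at 1–12 hpf, and 0.89 over the 37 abundant ones, of which 28 were below 1. The 20 hpf embryo had 0.95 and 0.86, with 29 of 37 below 1. Of the 89 other models over 1000 CPM, 66 were below 1 at 13 hpf and 69 at 20 hpf, with medians of 0.81 and 0.86. The share of abundant members below 1 was thus near that of other models of this level. At 13 hpf the second-range mean over the first-range embryo had a median of 0.82 in the abundant members, with 28 below 1. At 20 hpf that median was 1.00, with 19 below 1. The 89 other models had 0.71 and 0.77 at these hours, with 71 and 69 below 1. Each hour rests on 1 first-range embryo and has no replicate check.

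The most abundant member was ML02402a, with a mean of 9953 CPM, close to 1% of all counts. Its window means were 9744, 10733, 12172, 10301, 11327, 7444, 8997 and 8906 CPM. The highest embryos were those of 7 and 11 hpf, with 14184 and 14177 CPM, and the lowest was 1 embryo of 14 hpf with 6320 CPM. At 13 hpf the first-range embryo had 8091 CPM and the 3 others had 6698, 6934 and 7361 CPM.

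ML08065a followed, with a mean of 5865 CPM and a lowest, median and highest embryo of 3075, 5170 and 8892 CPM. Its highest embryo was that of 11 hpf and its lowest was 1 of the 3 embryos of 19 hpf, whose values were 4660, 7261 and 3075 CPM. Embryos of 1 hour thus differed by more than the window means of this member, which ran from 4345 to 7260 CPM.

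ML100010a (mean 5757 CPM) had its lowest window mean at 13–14 hpf (4331 CPM) and its highest at 8.5–10 hpf (7571 CPM). ML03312a (mean 4879 CPM) had 4005 CPM in the first window, 6091 CPM at 8.5–10 hpf and 4022 CPM at 13–14 hpf. ML043315a (mean 4504 CPM) ran between 3307 CPM at 13–14 hpf and 5593 CPM at 6.5–8 hpf. All 5 of the most abundant members were within 2-fold of their own median in all 46 embryos, and 4 of the 5 had their lowest window at 13–14 hpf, with ML03312a as the exception.

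**Figure D2:**
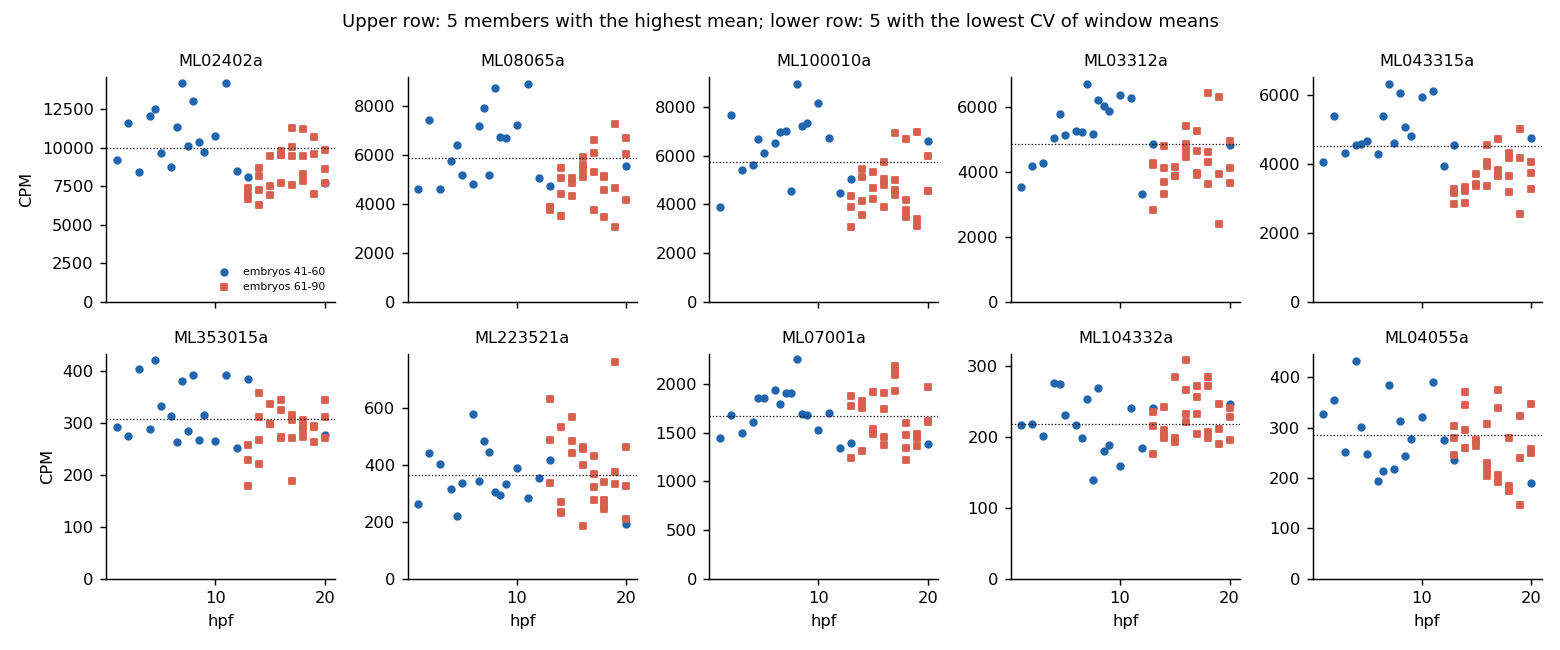
CPM (y axis, from 0) of the 5 members with the highest mean (upper row) and of the 5 with the lowest CV of window means (lower row) against hours post fertilization (x axis). Each point is 1 embryo, with first-range embryos (41–60) as blue circles and second-range embryos (61–90) as red squares, and the dotted line is the mean of the 8 windows. ML02402a reached 14184 CPM at 7 hpf and ML353015a ran from 179 to 420 CPM.

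As a group the members took 15.1% ± 1.62 (SD, n = 46 embryos) of all counts, from 11.8 to 18.8% in single embryos. By window the mean share was 14.6, 15.9, 17.8, 16.9, 16.9, 13.6, 14.7 and 14.7%. The other 514 models took 53.7% in the first window, 55.4% at 6.5–8 hpf, 40.8% at 13–14 hpf and 39.7% at 18–20 hpf. The members' share was highest at 7 hpf (18.7%) and 11 hpf (18.8%) and lowest in an embryo of 19 hpf (11.8%).

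The share is given here beside the depth. The embryos of 7 and 8 hpf had 507616 and 519768 counts with 18.7 and 18.1%, between embryos of 6.5 and 7.5 hpf with 925981 and 923820 counts and 17.2 and 17.0%. The embryo of 11 hpf had 743177 counts with 18.8%, and that of 12 hpf had 1265333 counts with 15.0%. The deepest embryo, 1 of 14 hpf with 2079694 counts, had 12.3%. In these embryos the shallower ones had the higher share. Others did not follow this order. At 13 hpf the second-range embryos with 492757, 1024935 and 1833045 counts had 13.2, 13.1 and 13.1%, and at 18 hpf embryos with 564549 and 890799 counts had 14.6 and 16.4%. The part of depth in the share was not tested.

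**Figure D3:**
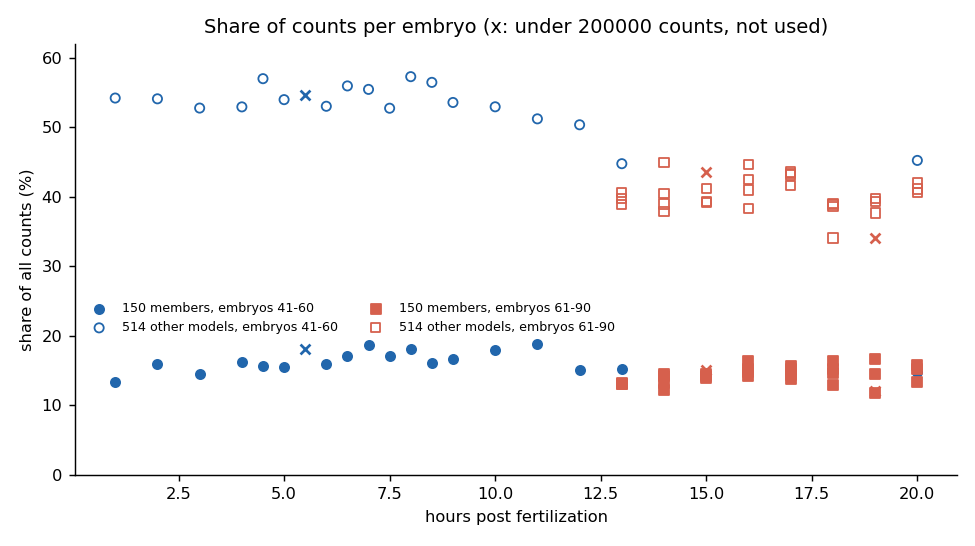
Share of all counts of an embryo (y axis, percent, from 0) taken by the 150 members (filled) and by the other 514 models with at least 100 CPM in every window (open) against hours post fertilization (x axis). Each point is 1 embryo, blue for embryos 41–60 and red for embryos 61–90, and crosses mark embryos under 200000 counts that were not used. The members stayed between 11.8 and 18.8% in the 46 used embryos.

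In single embryos the members were more variable than their window means. The CV over the 46 embryos had a median of 23.5% (38.2% in the other 514 models), and 105 of the 150 members were within 2-fold of their own median in every used embryo (78 of the 514). The highest embryo was 1.73 to 10.1 times the lowest, with a median of 2.88. Within 1 to 12 hpf, where all embryos are of the first range, the CV over window means had a median of 15.8%. The window means of the rule came from these same 46 embryos. A lower spread than in the other 514 models thus follows in part from the choice.

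Embryos of the same hour could be compared from 13 to 20 hpf, in the 28 second-range embryos. The rule did not rank models by this spread. These embryos also enter the later window means, so the spread is not independent of the choice. For each member the CV over the embryos of 1 hour was taken and the median over the 8 hours retained. Its median was 16.1% in the members and 17.1% in the other 514 models, so models with a steady course differed between embryos of 1 hour by about as much as models whose level moved over time. By hour the median member had 11.4% at 13 hpf, 15.0% at 14 hpf, 13.6% at 16 hpf and 24.8% at 19 hpf. The biological CV that edgeR estimated had a median of 22.8% in the members, 23.5% in the other 514 and 39.0% over all 8815 models tested.

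ML006118a had the smallest spread within an hour, with a median CV of 6.35%. Its embryos had 4006, 4036 and 3984 CPM at 13 hpf and 4517, 4455 and 4378 CPM at 15 hpf. Over the whole course its window means started at 2961 CPM in the 1–3 hpf window and stood between 3894 and 4750 CPM in the 7 later ones.

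ML15009a (median CV 7.62%) had 664, 655 and 651 CPM at 13 hpf, and its first-range embryos had 974, 782 and 909 CPM at 1, 2 and 3 hpf. ML148539a (median CV 8.64%) had 2064, 2261 and 2139 CPM at 13 hpf, all below the 3848 CPM of the first-range embryo of that hour.

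The largest spread was that of ML01257a, with a median CV of 64.3%. The second-range embryos had 189, 804 and 1053 CPM at 13 hpf, 728, 1093 and 196 CPM at 15 hpf and 154, 457 and 182 CPM at 20 hpf. In the 18 first-range embryos the lowest, median and highest values were 326, 739 and 1360 CPM. In the 28 second-range embryos they were 153, 546 and 1269 CPM, with 9 embryos under 300 CPM and 4 over 1000 CPM. High and low embryos occurred at the same hour, and 35 of 46 embryos were within 2-fold of the median. The window means of this member nevertheless had a CV of 18.9%.

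ML46359a (median CV 48.5%) had 541, 169 and 183 CPM in the second-range embryos of 13 hpf and 743 CPM in the first-range one. From 1 to 11 hpf its embryos had 155 to 267 CPM. ML03193a (median CV 47.9%) had 145, 55.1 and 197 CPM at 13 hpf and 46.6, 52.5 and 76.0 CPM at 19 hpf. In these 3 members the mean of a window averaged embryos that stood apart.

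**Figure D4:**
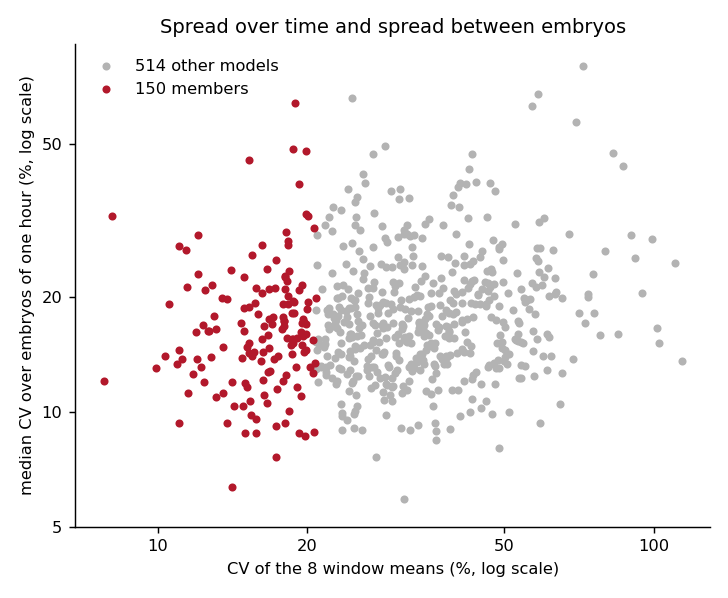
CV of the 8 window means (x axis, percent, log scale) against the median CV over the second-range embryos of 1 hour (y axis, percent, log scale) for the 150 members (red) and the other 514 models (grey). Each point is 1 model, and the border between the colours at 20.8% is the limit of the rule. The members' values on the y axis ran from 6.35 to 64.3%, with a median of 16.1% beside 17.1% in the other models.

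The rule averaged hours within a window, so differences between the hours of a window were tested separately in the second-range embryos, with edgeR's quasi-likelihood test over 8815 models. Between 13 and 14 hpf, among 15, 16 and 17 hpf and among 18, 19 and 20 hpf, 0 of the 150 members passed a Benjamini-Hochberg adjusted p of 0.05 in each test. The background was 0% in all 3, since 0 of the 8815 models passed. At an unadjusted p under 0.05 there were 3, 5 and 5 members, and 336, 511 and 729 of all models. DESeq2's likelihood ratio test also called 0 members in each of the 3.

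The intervals show what the data can say. The 95% interval of the log2 fold change lay within 2-fold in both directions for 139 members between 13 and 14 hpf, for 134 between 15 and 17 hpf and for 140 between 18 and 20 hpf. The counts in the other 514 models were 456, 416 and 447. For 67, 41 and 55 members the interval lay within 1.5-fold. A change of 2-fold between these hours was thus outside the interval of most members, and smaller changes were within it for many.

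The members with the smallest p were as follows. ML076310a had 261, 219 and 229 CPM at 13 hpf and 103, 98.8, 202 and 125 CPM at 14 hpf, with no overlap between the hours, a log2 fold change of -0.85 (SE 0.37) and an unadjusted p of 0.0289 by edgeR, with an adjusted p of 1.00. ML096811a had 1174, 1382 and 1370 CPM at 15 hpf, 810, 899, 929 and 988 CPM at 16 hpf and 619, 754, 996 and 710 CPM at 17 hpf. The embryos of 15 hpf were all above those of both later hours. The log2 fold change from 15 to 17 hpf, the pair of hours with the largest change, was -0.70 (SE 0.19). The edgeR test over 15, 16 and 17 hpf together gave a p of 0.00378 and an adjusted p of 0.597. ML06974a had 218, 329, 203 and 245 CPM at 18 hpf, 147, 306 and 952 CPM at 19 hpf and 307, 310 and 145 CPM at 20 hpf, with an edgeR adjusted p of 0.517. For ML06974a the hours overlapped and the 952 CPM of 1 embryo set the mean of 19 hpf.

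The number ranges could be compared at 13 and 20 hpf, the hours that both hold, with 1 first-range embryo against 3 of the second range at each hour. edgeR, with the hour as a term, called 352 of 5444 models, or 6.47%. Of the 150 members it called 7, all lower in the second range and 0 higher, where the background was 3.43% lower and 3.03% higher. In the other 514 models it called 76, of which 73 were lower. At an unadjusted p under 0.05 there were 38 of the 150 members, 174 of the other 514 models and 1255 of all 5444. The share called was 4.67% in the members, beside 6.47% in all models and 14.8% in the other 514. A model that differs between the ranges also tends to differ between the first 5 and the last 3 windows, which the rule used, so the count of members is not independent of how they were chosen.

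The 7 members rest on few embryos. The count was 1 without the 13 hpf embryo of the first range and 2 without its 20 hpf embryo, 2 or 3 when any of the 3 second-range embryos of 13 hpf was left out, and 6 to 8 without a second-range embryo of 20 hpf. With library size alone in place of TMM factors it was 1, and DESeq2 called 14. Under TMM the median log2 difference was -0.30 over the members, -0.27 over the other 514 models and 0.05 over all models. The members thus stood close to the other 514. Under library size alone the medians of members and of all models were higher, at -0.07 and 0.27, with members again below all models. The median of the other 514 is not given for that setting.

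ML148539a had the smallest p. It had 3848 CPM in the first-range embryo and 2064, 2261 and 2139 CPM in the others at 13 hpf, and 3401 CPM against 2195, 2633 and 2922 CPM at 20 hpf. The first-range embryo was above the 3 others at both hours, and the log2 difference was -0.85 (SE 0.18) with an edgeR adjusted p of 0.0154. Its lowest and highest values over all 18 first-range embryos were 2557 and 4539 CPM, and 16 of the 28 second-range embryos were under 2557 CPM.

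ML10375a had 947 CPM against 560, 513 and 483 CPM at 13 hpf and 727 CPM against 535, 477 and 531 CPM at 20 hpf (log2 difference -0.92, SE 0.20, edgeR adjusted p 0.0159). Here too the groups did not overlap at either hour. ML043315a, 1 of the 5 most abundant members, had 4539 CPM against 3153, 2842 and 3273 CPM at 13 hpf and 4742 CPM against 3275, 3735 and 4052 CPM at 20 hpf (log2 difference -0.69, SE 0.17, edgeR adjusted p 0.0297). ML15977a had 605 CPM against 536, 516 and 501 CPM and 696 CPM against 317, 317 and 355 CPM (log2 difference -0.91, SE 0.22, edgeR adjusted p 0.0298), so most of its difference came from 20 hpf.

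The remaining 3 were ML07395a, ML13973a and ML01257a, which were chosen late, once their values were known, to complete the 7. Their log2 differences were -0.77, -0.58 and -1.66, with edgeR adjusted p-values of 0.0368, 0.0495 and 0.0495. At 20 hpf ML07395a had 3790 CPM in the first-range embryo and 4066, 3712 and 3224 CPM in the others, so its groups overlapped there. ML01257a is the member whose embryos differed most within an hour.

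**Figure D5:**
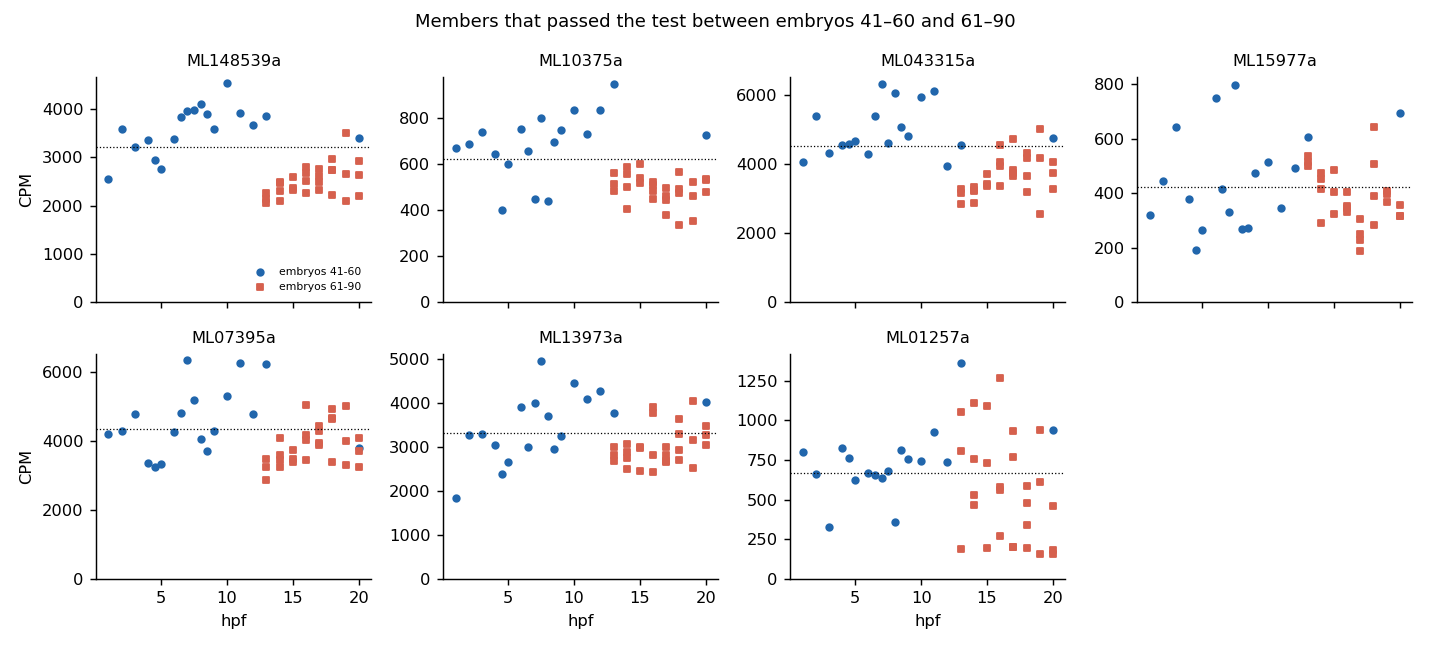
CPM (y axis, from 0) of the 7 members called between the number ranges against hours post fertilization (x axis). Each point is 1 embryo, blue circles for embryos 41–60 and red squares for embryos 61–90, and the dotted line is the mean of the 8 windows. ML148539a had 2064 to 2261 CPM in the second-range embryos of 13 hpf beside 3848 CPM in the first-range embryo.

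Single values were also compared without a model. At 13 hpf the first-range embryo lay outside the range of the 3 others for 108 members (72%), beside 71.4% of the 664 models and 53.3% of all models with a count. It was above the range for 71 members and below it for 37. At 20 hpf it lay outside for 88 members (58.7%), beside 61.7 and 43.9%, with 45 above and 43 below. At both hours 28 of the 150 members were above and 19 were below, beside 150 and 97 of the 664 models. A share near that of the 664 models says nothing particular about the members.

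The embryos set aside for depth were not used by the rule and give a further reading at low depth. They were compared with each model's mean over the windows, which the rule did use. By the rule, the window means of the 514 others vary more around that mean than those of the members. A lower share of the others near their mean in these embryos thus follows in part from the choice. The embryo of 5.5 hpf had 138478 counts, and the median member had an expected 48.3 counts. All 150 members and all 514 other models were detected. Of the members 137 were within 2-fold of their mean, beside 448 of the 514, and the median ratio to the mean was 1.10 in the members and 1.21 in the others. The 95% Poisson interval of the count, which covers counting error only, held the mean for 78 members (52.0%) and for 180 of the 514 others (35.0%).

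The embryo of 19 hpf with 134806 counts had 138 members within 2-fold, beside 374 of the 514 others, and a median ratio of 0.79, and its interval held the mean for 64 members (42.7%), beside 36.4% of the others. In the embryo of 15 hpf with 18731 counts the interval held the mean for 117 members (78.0%), beside 71.6%, at an expected 6.54 counts for the median member. The embryo of 0 hpf had 1119 counts, so that 1 count was worth 894 CPM, and 54 members had a count. Nothing could be read on their level at 0 hpf at this depth.

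The largest departures at 5.5 hpf were all low. ML021129a had 2 counts, or 14.4 CPM (95% Poisson interval 1.75 to 52.2 CPM), where its 46 used embryos had 108 to 220 CPM. ML047314a had 3 counts, or 21.7 CPM (4.47 to 63.3 CPM), where the used embryos had 72.4 to 254 CPM. ML49658a had 6 counts, or 43.3 CPM (15.9 to 94.3 CPM), where they had 102 to 412 CPM. The upper bounds of all 3 were below the lowest used embryo, and the 5.5 hpf embryo has no replicate.

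The study followed candidate genes of colloblasts, the adhesive cells of the tentacles, and of tentacles. The lists used here are not the complete lists of candidates and hold 331 identifiers, all found in the count table. Of these, 0 are members and 2 are among the 664 models, where the members make up 0.906% and the 664 models 4.01% of all models in the table. ML01511a, a tentacle candidate with an EF-hand domain (a calcium-binding fold), had window means from 477 CPM at 4–6 hpf to 171 CPM at 18–20 hpf and a CV of 43.2%. ML073417a, the nuclear receptor MlNR1, had 898 CPM at 1–3 hpf and 140 CPM at 18–20 hpf, with a CV of 91.6%. None of the lists' other models reached 100 CPM in every window.

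Most ML2.2 identifiers open with a 4-digit number followed by the number of the model, and 28 in the whole table, none of them members, could not be read in this way. The 150 members carry 130 different 4-digit numbers, 20 numbers are shared by a pair of members, and none by more. There are 4 pairs of members with consecutive identifiers, beside 72 such pairs among the 664 models. ML04795a and ML04796a, 1 of the 4 pairs, both had their highest window at 6.5–8 hpf (3846 and 1658 CPM) and their lowest at 13–14 hpf (2329 and 884 CPM). ML02547a and ML02548a did not: the first was highest at 13–14 hpf (330 CPM) and the second at 8.5–10 hpf (480 CPM). Neither the position nor the overlap of these models was analysed here.

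Which models count as constant depended on the scaling. With TMM factors 74 of the 150 members remained among the 150 lowest, with RLE factors 63, and 53 remained under both and under CPM, of which 5 were over 1000 CPM. The median factor was 0.90 in the first range and 1.05 in the second under TMM, and 1.01 and 0.98 under RLE. The CV of ML02402a was 15.1% under CPM, 27.2% under TMM and 24.0% under RLE, and that of ML353015a was 7.79, 17.3 and 15.3%.

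A group of 11 members, chosen late with these values known, stayed under a CV of 15% in all 3 scalings. ML17595a (mean 844 CPM) had 11.0, 11.1 and 12.1% under CPM, TMM and RLE, with a median CV of 9.32% within an hour. ML033620a (mean 1066 CPM) had 12.6, 7.07 and 8.34%, and ML223521a had 8.09, 11.9 and 12.7%. The other 8 were ML00874a, ML05516a, ML085030a, ML08645a, ML214313a, ML00383a, ML072819a and ML104332a, with means from 146 to 681 CPM. Only ML033620a of the 11 was over 1000 CPM.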

How the data were processed

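The deposited values are counts of reads per ML2.2 protein model, which the authors made with CASAVA 1.8, Bowtie2 2.1.0 and HTSeq 0.5.4p3 according to the submitters' processing notes. The barcodes carried unique molecular identifiers. Whether these were collapsed before counting, which genome build was used and how HTSeq was set is not given in the sources used here. Without collapsing, reads are not independent molecules, and intervals on counts cover counting error only. The 5 HTSeq class rows were left out of totals and tests. The reference table of 19625 genes matched 0 identifiers.

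Counts were scaled to CPM by the embryo's total. Tests used the quasi-likelihood F-test of edgeR 4.0.16 with TMM factors, on all models that passed filterByExpr, with Benjamini-Hochberg adjustment at 0.05: the hour in the 28 second-range embryos, and the number range plus the hour at 13 and 20 hpf. Alternatives were RLE factors, library size alone, no filter, all embryos of 13 to 20 hpf, DESeq2 1.42.0 (likelihood ratio test), other limits and averages of the rule, leaving out each embryo and, added after the data were seen, a block of embryo numbers. The code was tested on simulated counts. The work ran in R 4.3.3 and in Python 3.11.15 with pandas 2.3.3, numpy 2.4.6, matplotlib 3.10.9 and scipy 1.17.1.

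The members and lists were chosen with earlier results of these data known. Named are the 5 members with the highest mean, the 5 with the lowest CV, the 3 on each side of the limit, per test the 4 called with the smallest p, the 3 largest and 3 smallest spreads within an hour, the 3 largest departures at 5.5 hpf, members on lists of the study and examples of consecutive identifiers. The member with the smallest p in each of the tests without calls was added to these, as were the few others that the text marks as chosen late.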

Additional observations from a re-analysis of the deposited data

Results flagged for a closer look

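In each hour with 4 used embryos, an embryo far from the other 3 was looked for by Dixon's test, for the members' share and for the 10 members named for level or CV. Of 66 groups 7 stood out, where chance flags about 1 in 20 groups. At 13 hpf the first-range embryo had 15.3% of its counts in members, while the others had 13.1 to 13.2%, and it had 4740 CPM of ML08065a, while the others had 3773 to 3888 CPM. The deepest embryo, of 14 hpf, had 535 CPM of ML223521a against 233 to 270 CPM and 1314 CPM of ML07001a against 1753 to 1828 CPM. The other 3 were 1 embryo of 16 hpf with 7748 CPM of ML02402a against 9532 to 9815 CPM, 1 of 17 hpf with 4724 CPM of ML043315a against 3646 to 3815 CPM, and 1 of 18 hpf with 281 CPM of ML04055a against 175 to 185 CPM. Their cause was not tested.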

How the results depend on the processing

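Of the 150 members, 74 remained with TMM factors, 63 with RLE factors, 95 with a minimum of 50 CPM, 98 with 200 CPM and 82 with first-range embryos alone, where the windows of 13–14 and 18–20 hpf hold 1 embryo each and that of 15–17 hpf none. With medians, means over hours or the shallow embryos included, 131 to 148 remained, and 126 to 149 when 1 embryo was left out. The tests within windows called 0 members under every alternative run, leaving out each embryo included. Between the number ranges the 7 calls became 1 with library size alone and 14 with DESeq2, 6 to 8 under 3 other settings, and 1 to 8 with 1 embryo left out (1 without the first-range embryo of 13 hpf and 2 without that of 20 hpf). None of the log2 differences of ML148539a, ML10375a, ML043315a and ML15977a changed sign in these settings. Their calls were less stable. With all embryos of the main comparison or more, 17 of the values passed an adjusted p of 0.05 and 3 did not. With 1 embryo left out the log2 differences ran from -1.32 to -0.49, and part of them lost the call. The minimum of 200 CPM left 347 models and only 98 members to choose from. That of 50 CPM admitted 1304 models and kept all 150 members with unchanged CVs, and the highest CV among the 150 chosen fell from 20.8 to 18.0%. The cause of the other shifts was not tested. The labels give no replicate numbers that link hours. Embryo numbers from 61 on run through the hours 4 times, and these 4 runs were added as a replicate block after the data were seen. With this block 0 members were called in each test within windows, with 4 members at an unadjusted p under 0.05 in each and 0, 1 and 0 of all 8815 models called. Of 28 embryos 6 correlated best with their own run, in deviations from the hour's mean. With 4 runs to choose from, some embryos do so by chance, so this count does not show that the runs differ. These runs pair no embryos of the first range with the second, since embryos 41 to 60 belong to none of them. At 0 hpf, depth allows no statement on any member.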
